A study of Mus musculus with 4 samples.

Results

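The genes of glycolysis and of the hypoxia response were compared between mouse liver tumor samples taken without doxycycline and after 8 days of it. The treatment was meant to switch p53 back on. The set was fixed by name and held 37 genes: glucose and lactate transporters, glycolytic enzymes, enzymes that tune phosphofructokinase, pyruvate dehydrogenase kinases, regulators of the hypoxia-inducible factors (HIFs) and HIF targets outside glycolysis. Of these, 34 were measured by at least 1 probe set annotated to exactly 1 gene symbol, with 76 such probe sets among 45101 on the array. Eno1 (enolase), Gpi1 (glucose-6-phosphate isomerase) and Bnip3l (a mitophagy receptor) had none and were not analysed here. Each of the 34 genes was represented by its brightest probe set, the one with the highest mean over the arrays, in a table of 18194 genes. The brightness of different probe sets was not compared between genes.

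The tumors came from transplanted liver progenitor cells and were driven by HrasV12, an oncogenic form of Ras. All of them carried a tet-off hairpin RNA against p53 (shp53), which is silenced by doxycycline. The p53 off group had 0 days of doxycycline and an active hairpin. The p53 on group ate doxycycline chow over 8 days, which is meant to let p53 return. Each group had 2 samples on 1 Affymetrix mouse array each, and all groups share the Ras driver, the hairpin and the transplanted origin. The labels name no strain, age or genotype of the recipients. They do not say whether replicates were separate mice either, so the p-values speak only of the spread among these arrays, which may be technical. No sample received doxycycline without the hairpin. Restored p53, doxycycline itself and 8 days of time cannot be told apart in this design.

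Glycolysis splits glucose into pyruvate and yields ATP without oxygen. Many tumors run it at a high rate and export the product as lactate. Its genes are textbook targets of HIF, a pair of an oxygen-labile alpha subunit (Hif1a or Epas1, the latter encoding HIF-2 alpha) and the stable partner Arnt. In oxygen the prolyl hydroxylases encoded by Egln1 and Egln3 mark the alpha subunit for destruction, and Egln3 and Egln1 are themselves HIF targets. In normal hepatocytes the pathway can also run backwards to make glucose, with other isozymes.

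The labels were checked against cell type markers, and 1 array stood apart in its skeletal muscle genes. Of 12 markers of liver tumor epithelium, 8 had a mean above that of the median gene. Those above it included the cytokeratin genes Krt8 and Krt18, whereas Alb, the albumin gene of mature hepatocytes, ranged from 6.96 to 7.39 on the log2 scale, at about the 31.7 percentile of mean expression. Afp, another of these 12 markers, read 9.16 and 9.15 in p53 off, 8.47 in p53 on replicate 1 and 5.33 in p53 on replicate 2. The p53 on replicate 1 array held high values of skeletal muscle genes. Of 16 such genes, listed after the values of Pdk4 and Eno3 had been seen, 15 were higher there by over 1 on the log2 scale than in p53 on replicate 2, with a median gap of 2.66. Among all genes 0.374% had such a gap. The mean log2 value of the 16 genes was 10.67 in p53 on replicate 1, against 8.04 in p53 on replicate 2 and 7.58 and 8.40 in p53 off. The creatine kinase gene Ckm stood at 10.80 there and between 7.54 and 8.07 in the other arrays. Adipoq, an adipocyte hormone gene looked up afterwards, stood at 9.77 against 5.39 to 5.79. Median log2 values of the arrays lay between 7.29 and 7.39. The number of arrays limits the precision.

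**Figure D1:**
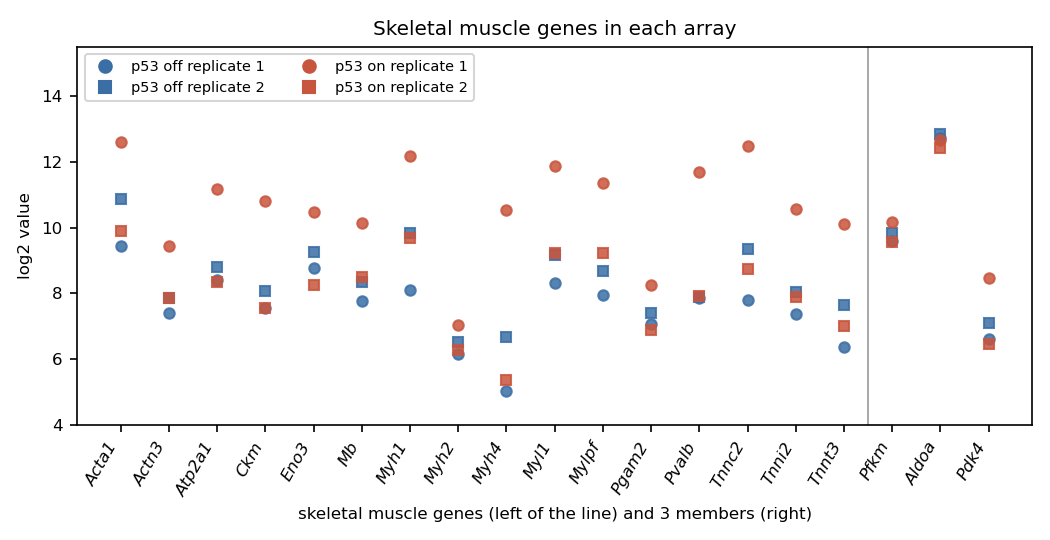
Log2 values (vertical axis) of 16 skeletal muscle genes and, right of the line, of the members Pfkm, Aldoa and Pdk4 in each array, with p53 off in blue and p53 on in red, circles for replicate 1 and squares for replicate 2. The muscle genes, Pfkm and Pdk4 are highest in p53 on replicate 1, and Aldoa is not.

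Comparing the groups asks what differs in these established tumors after 8 days of doxycycline. Transcripts for most steps from glucose uptake to lactate export were lower in p53 on, while a smaller set of genes, among them Eno2, Epas1 and Slc2a3, was higher. Limma (adjusted p under 0.05 over all genes) called 16 of the 34 measured members lower and 8 higher, together 70.6%. Among all 18194 genes it called 28.7%, 14.7% lower and 14.0% higher. With the dimmest 40% of genes left out, limma called 43.7% of 10916 genes, and 15 of 28 members lower and 7 higher. The lactate transporter gene Slc16a1 had the largest fall, 4.03-fold, and the neuronal enolase gene Eno2 the largest rise, 3.34-fold. The groups did not overlap in 31 of 34 members, against 66.7% of all genes. In tissue samples such as these, fewer cells of a type and less RNA per cell cannot be told apart.

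Leaving out 1 array leaves 1 array in its group, and the spread then comes from the other pair alone. Without p53 off replicate 1 or p53 off replicate 2, fewer members and fewer of all genes were called. The effect sizes moved less. The median change of the enzymes was -0.44 with all arrays, -0.45 without p53 off replicate 1 and -0.45 without p53 off replicate 2. It was -0.40 without p53 on replicate 1, the array with muscle genes, and -0.48 without p53 on replicate 2. Of all called genes 48.8% were higher, compared with 37.9% under median centring of the arrays and 70.0% under scaling to spike-in controls, a scaling that moved the median of all genes by 0.13. Of the called members 33.3% were higher, against 27.3% and 41.7%. No called member changed direction between these scalings.

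**Figure D2:**
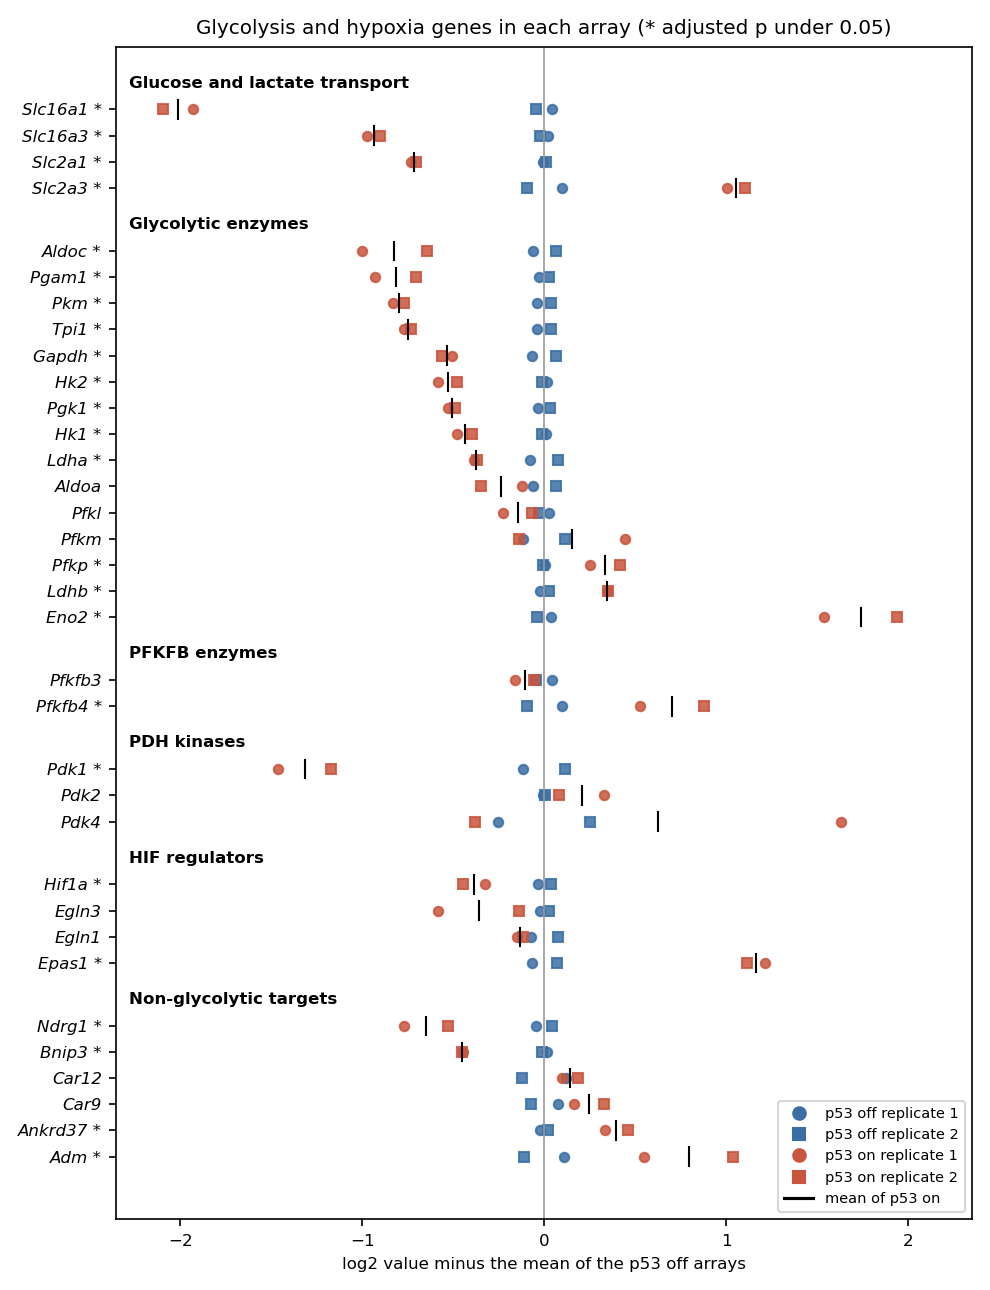
Log2 value of each member in each array minus the gene's mean over the p53 off arrays (horizontal axis), with the genes ordered by role and by change, p53 off in blue, p53 on in red, circles for replicate 1, squares for replicate 2 and a black bar at the mean of p53 on; an asterisk marks an adjusted p under 0.05. Most transporters and enzymes lie left of 0, Eno2, Epas1 and Slc2a3 lie right of it by over 1, and the p53 on arrays of Pdk4 lie far apart.

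All 4 transporter genes changed, 3 of them downward. Slc16a1 encodes MCT1, which carries lactate and pyruvate across the cell membrane. Its log2 values were 11.43 and 11.34 in p53 off against 9.46 and 9.29 in p53 on. The groups were far apart, and the change was -2.01 ± 0.09 (SE, n = 2 against 2; limma adjusted p = 0.000401). This value came from 1 of 2 probe sets. The other read 5.64 to 5.90 in all arrays, near the bottom of the scale, and changed by 0.068 (adjusted p = 0.706 in the fit of all probe sets), so the mean of both was -0.97. Slc16a3 encodes MCT4, the lactate exporter of strongly glycolytic cells, and read 7.97 and 7.93 in p53 off against 6.98 and 7.05 in p53 on. It fell by 0.94 ± 0.075 on the log2 scale (limma adjusted p = 0.00118).

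The glucose transporters moved in opposite directions. Slc2a1 encodes GLUT1, the widely expressed basal glucose transporter. It read 12.11 and 12.13 in p53 off against 11.39 and 11.42 in p53 on, a change of -0.72 ± 0.071 (limma adjusted p = 0.00201). Its 3 probe sets all fell, by 0.72 to 0.86. Slc2a3 encodes GLUT3, a high-affinity transporter of neurons and of myeloid cells. It read 10.07 and 9.88 in p53 off against 10.98 and 11.08 in p53 on, a rise of 1.05 ± 0.096 (2.08-fold; limma adjusted p = 0.00159). A second probe set rose by 0.93. Both carry a suffix that marks possible cross-hybridization, as do the brightest probe sets of Pgk1, Ndrg1, Adm and Aldoa. The remaining pair for Slc2a3, at 5.96 to 6.77 in all arrays, changed by 0.014 and 0.12 and was not called. With only probe sets that carry no suffix of any kind, Slc2a3 was read by the one at 0.014, with a limma adjusted p of 0.934 (range over the alternatives 0.000545 to 0.934).

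Of 15 measured glycolytic enzyme genes 9 were lower and 3 higher, with a median change of -0.44. The median of all genes was 0.023. At the first step, the hexokinase genes Hk1 and Hk2 fell together. Hk1 read 11.26 and 11.24 in p53 off against 10.77 and 10.85 in p53 on (-0.44 ± 0.075, limma adjusted p = 0.0104). Hk2, the hexokinase induced in many tumors, read 10.88 and 10.85 against 10.28 and 10.38 (-0.53 ± 0.078, limma adjusted p = 0.0065). The p53 on arrays were the lower ones for both genes. Without p53 off replicate 2 the limma adjusted p was 0.0727 for Hk1 and 0.0504 for Hk2, and without p53 off replicate 1 it was 0.0656 for Hk1 (ranges over the alternatives 0.00441 to 0.0727 and 0.00248 to 0.0504).

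Phosphofructokinase commits sugar to the pathway, and none of its 3 isoform genes was called lower. The liver-type gene Pfkl read 10.27 and 10.21 in p53 off against 10.02 and 10.17 in p53 on, a difference of -0.15 ± 0.086 (limma adjusted p = 0.27). The platelet-type gene Pfkp read 9.74 and 9.73 against 9.98 and 10.15 and rose by 0.33 ± 0.087 (limma adjusted p = 0.0389). Its other 2 probe sets changed by 0.31 and -0.13 and were not called (adjusted p = 0.174 and 0.296 in the fit of all probe sets). The call of Pfkp was the least stable among the enzymes. It was lost without p53 off replicate 1 (0.143), p53 off replicate 2 (0.182) or p53 on replicate 2 (0.108), under median centring (0.0796), with a block for the replicate number (0.0685) and with the mean of its 3 probe sets (change 0.17, 0.197; range over the alternatives 0.0153 to 0.197). The muscle-type gene Pfkm read 9.60 and 9.83 in p53 off against 10.16 and 9.58 in p53 on. Its groups overlapped (limma adjusted p = 0.627), and it was highest in the array with muscle genes. Without that array the change was -0.14 (0.486), and without p53 on replicate 2 it was 0.45 (0.0446; range over the alternatives 0.0446 to 0.938).

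Of the genes for enzymes that make and interconvert the triose sugars, Aldoc and Tpi1 were called lower and Aldoa was not. The aldolase gene Aldoa read 12.72 and 12.85 in p53 off against 12.66 and 12.44 in p53 on (-0.24 ± 0.10, limma adjusted p = 0.158), and none of its 5 probe sets was called. Aldoc, the brain-type aldolase gene, read 8.32 and 8.45 against 7.38 and 7.74 and fell by 0.82 ± 0.13 (limma adjusted p = 0.00908). Its other probe set, at 5.48 to 5.68, did not follow (0.12, adjusted p = 0.318 in the fit of all probe sets), and without p53 off replicate 2 the call was lost (limma adjusted p = 0.0679, range over the alternatives 0.00156 to 0.313). Tpi1, triose phosphate isomerase, read 12.87 and 12.95 against 12.14 and 12.18 (-0.75 ± 0.075, limma adjusted p = 0.00206). All 3 of its probe sets fell, by 0.68 to 0.81.

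Gapdh, which makes the NADH of the pathway, was measured only by the 3 control probe sets of the array. The brightest read 13.94 and 14.07 in p53 off against 13.49 and 13.44 in p53 on (-0.53 ± 0.082, limma adjusted p = 0.00757), and the other 2 changed by -0.45 and -0.56. Pgk1, phosphoglycerate kinase, an ATP-making step, read 13.43 and 13.50 against 12.94 and 12.98 (-0.51 ± 0.074, limma adjusted p = 0.00644), with all 3 probe sets lower. Without p53 off replicate 2 the adjusted p was 0.0621 for Gapdh and 0.0591 for Pgk1 (ranges over the alternatives 0.00258 to 0.0621 and 0.00234 to 0.0591). Gapdh is often used to scale expression between samples. Here its 2 groups were 1.45-fold apart.

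In lower glycolysis, Pgam1 and Pkm fell in each alternative that measured them. Pgam1, phosphoglycerate mutase, read 12.54 and 12.60 in p53 off against 11.64 and 11.86 in p53 on (-0.82 ± 0.099, 1.76-fold lower, limma adjusted p = 0.00362). Pkm, pyruvate kinase, read 12.85 and 12.93 against 12.06 and 12.12 (-0.80 ± 0.077, limma adjusted p = 0.00183). Which of its splice forms the probe set reads is not given in the sources used here. Eno2, the neuron-enriched enolase gene, ran the other way. It read 6.78 and 6.70 in p53 off against 8.28 and 8.68 in p53 on, a rise of 1.74 ± 0.14 (limma adjusted p = 0.00121), and no array of one group came near the other. Eno1, the main enolase gene of most tissues, was not measured, so the total for this step is unknown.

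The last step turns pyruvate into lactate. Ldha, whose subunit favours lactate production, read 13.02 and 13.17 in p53 off against 12.71 and 12.73 in p53 on (-0.38 ± 0.084, limma adjusted p = 0.0242). The call of Ldha was lost without p53 off replicate 1 (0.0517), p53 off replicate 2 (0.153) or p53 on replicate 1 (0.0548) and with spike-in scaling (0.0747; range over the alternatives 0.013 to 0.153). Ldhb, the heart-type subunit gene, read 9.25 and 9.30 against 9.62 and 9.62 and rose by 0.35 ± 0.072 (limma adjusted p = 0.0192). All 4 of its probe sets rose, by up to 0.97. Its brightest probe set lost the call without p53 off replicate 1 (0.109) or p53 off replicate 2 (0.0989) and under median centring (0.0508; range over the alternatives 0.00574 to 0.109).

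PFKFB enzymes set the level of fructose-2,6-bisphosphate, the activator of phosphofructokinase. Pfkfb4 read 9.04 and 8.85 in p53 off against 9.48 and 9.83 in p53 on, a rise of 0.70 ± 0.14 (limma adjusted p = 0.0168), which was lost without p53 off replicate 2 (0.107, range over the alternatives 0.00335 to 0.107). Pfkfb3 read 9.94 and 9.85 against 9.73 and 9.84 (-0.11 ± 0.082, limma adjusted p = 0.393). The call was not reached for Pfkfb3 in any alternative (range over the alternatives 0.167 to 0.852).

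Pyruvate dehydrogenase kinases (PDKs) keep pyruvate out of the mitochondrial citrate cycle. Pdk1, the HIF target among them, read 10.17 and 10.40 in p53 off against 8.83 and 9.12 in p53 on. It fell by 1.32 ± 0.13 on the log2 scale (2.49-fold, limma adjusted p = 0.00206), the largest fall among the members after Slc16a1. A second probe set fell by 0.61, another changed by -0.30 (adjusted p = 0.0536 in the fit of all probe sets) and the fourth, at 5.44 to 5.55, by 0.046, so the mean of all 4 was -0.55. Pdk2 read 6.42 and 6.43 against 6.75 and 6.50 and was not called (0.21 ± 0.10, limma adjusted p = 0.198). Its p53 on arrays lay above the p53 off arrays, and it was called without p53 on replicate 2 (0.0491) and with spike-in scaling (0.0442; range over the alternatives 0.0442 to 0.589).

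Pdk4, which rises with fasting and is abundant in muscle, read 6.59 and 7.10 in p53 off against 8.47 and 6.46 in p53 on. Only p53 on replicate 1 was high, and the groups overlapped (0.62 ± 0.63, limma adjusted p = 0.52). Without p53 on replicate 1 the difference was -0.38 (0.226), and without p53 on replicate 2 it was 1.63 (0.00259; range over the alternatives 0.00259 to 0.8). The value of Pdk4 thus rests on 1 array. The skeletal muscle genes were high in the same array, where their mean was 10.67 against 7.58 to 8.40 in the other 3. Their part in this value was not tested.

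The HIF alpha subunit genes moved apart. Hif1a read 13.20 and 13.27 in p53 off against 12.91 and 12.79 in p53 on, and fell by 0.39 ± 0.083 (limma adjusted p = 0.021). Of its 4 probe sets 3 fell, by 0.39 to 0.63, and the fourth, at 6.61 to 6.90, changed by 0.084. The call depended on several choices: it was lost without p53 off replicate 1 (0.0759), p53 off replicate 2 (0.139) or p53 on replicate 2 (0.0569), with a block for the replicate number (0.0514) and with spike-in scaling (0.0625; range over the alternatives 0.0105 to 0.139). Epas1 read 12.12 and 12.26 in p53 off against 13.40 and 13.30 in p53 on. It rose by 1.16 ± 0.087 (2.24-fold, limma adjusted p = 0.000976), and its second probe set rose by 0.56.

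The oxygen sensor genes were not called by their brightest probe sets. Egln1, which encodes the main hydroxylase PHD2, read 10.51 and 10.66 in p53 off against 10.44 and 10.47 in p53 on (-0.13 ± 0.084, limma adjusted p = 0.299). Its other probe set read 9.33 and 9.46 against 8.18 and 8.70 and fell by 0.96 ± 0.18 (adjusted p = 0.0153 in the fit of all probe sets). The mean of both was called (-0.55, limma adjusted p = 0.0193, range over the alternatives 0.0193 to 0.983), so the call for Egln1 turns on the probe set. Egln3, which encodes the strongly hypoxia-induced PHD3, read 10.60 and 10.65 against 10.04 and 10.49 (-0.36 ± 0.15, limma adjusted p = 0.14). The p53 on arrays of Egln3 differed by more than the groups did. Without p53 on replicate 2 the change was -0.58 (0.00734; range over the alternatives 0.00734 to 0.393).

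HIF targets outside glycolysis went both ways, with 2 of 6 measured genes lower and 2 higher. Bnip3, a mitophagy and cell death gene, read 11.91 and 11.88 in p53 off against 11.45 and 11.44 in p53 on (-0.45 ± 0.071, limma adjusted p = 0.00807). Ndrg1, a stress-response gene, read 10.82 and 10.91 against 10.10 and 10.34 (-0.65 ± 0.11, limma adjusted p = 0.00894), and 3 of its 5 probe sets were called, all lower. Leaving out p53 off replicate 2 ended both calls (0.06 for Bnip3 and 0.0694 for Ndrg1), and that of Bnip3 also without p53 off replicate 1 (0.0564; ranges over the alternatives 0.00346 to 0.06 and 0.00311 to 0.0694).

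Adm, the gene of the vasodilator peptide adrenomedullin, read 8.65 and 8.43 in p53 off against 9.09 and 9.58 in p53 on. It rose by 0.79 ± 0.18 (limma adjusted p = 0.0244), and its second probe set rose by 1.16. Ankrd37, an ankyrin repeat gene and a classic HIF-1 target, read 9.33 and 9.37 against 9.68 and 9.81 and rose by 0.40 ± 0.082 (limma adjusted p = 0.0186). Without p53 off replicate 1 the adjusted p was 0.063 for Adm and 0.1 for Ankrd37, without p53 off replicate 2 it was 0.139 and 0.0976, and with a block for the replicate number that of Adm was 0.0525 (ranges over the alternatives 0.00222 to 0.139 and 0.0076 to 0.1). Car9 and Car12 encode carbonic anhydrases at the cell surface that handle the acid of glycolytic cells. Car9 read 7.11 and 6.97 against 7.20 and 7.37 (0.25 ± 0.097, limma adjusted p = 0.119, and 0.0425 with spike-in scaling, range over the alternatives 0.0425 to 0.461). Car12 read 6.82 and 6.58 against 6.79 and 6.88 (0.14 ± 0.10, limma adjusted p = 0.376), and its groups overlapped.

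Set side by side, the glycolytic enzymes had a median change of -0.44 with 9 of 15 lower and 3 higher. The HIF regulators and non-glycolytic targets had a median of 0.0040 with 3 of 10 lower and 3 higher. The background among all genes was 0.023, with 14.7% lower and 14.0% higher. Fewer genes of each list, and fewer of all genes, were called without p53 off replicate 2 or p53 off replicate 1. The medians without these arrays were -0.45 for the enzymes in each case, and -0.019 without p53 off replicate 2 and 0.027 without p53 off replicate 1 for the other genes. The difference between the lists was not tested.

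**Figure D3:**
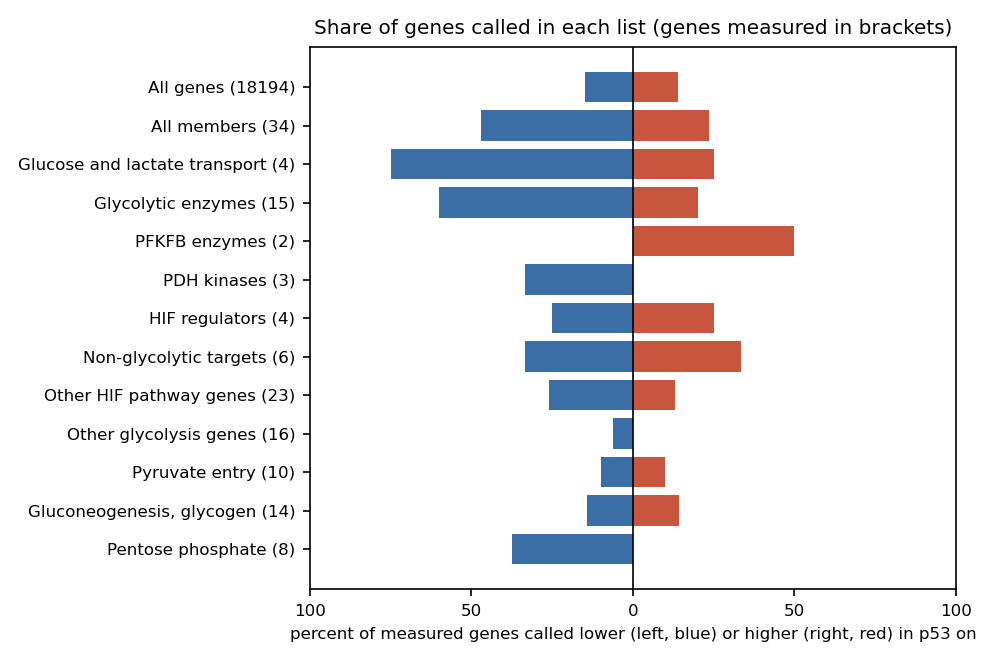
Percent of the measured genes of each list called lower (blue, left) or higher (red, right) in p53 on, with the number measured in brackets. Transport and glycolytic enzyme genes have the longest blue bars, at 3 of 4 and 9 of 15 genes, whereas HIF regulators and non-glycolytic targets have blue and red bars of equal length.

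Several related genes shifted against each other within the same array, a comparison that a scaling factor per array leaves as it is. The pairs were chosen after the values had been seen, and 2 arrays against 2 cannot give a two-sided permutation p below 0.333, so they are given as values. The ratio of Slc2a3 to Slc2a1 was higher in p53 on by 1.77 on the log2 scale (3.41-fold), with the p53 on arrays at 1.74 and 1.80 above the p53 off mean and the p53 off arrays within 0.10 of it. The ratio of Epas1 to Hif1a was higher by 1.55 (2.93-fold), at 1.54 and 1.56. That of Ldhb to Ldha was higher by 0.72 (1.65-fold), at 0.73 and 0.72. For Pfkp over Pfkl the values were 0.47 and 0.49. The p53 on arrays nearly coincide in these 4 pairs. They lay further apart for Aldoc over Aldoa (-0.88 and -0.30) and Egln3 over Egln1 (-0.43 and -0.024). The same held for Pfkfb4 over Pfkfb3 (0.69 and 0.93) and Slc16a3 over Slc16a1 (0.95 and 1.19). Hk2 over Hk1 differed by only -0.094, so the hexokinase genes kept nearly the same ratio. Pdk4 over Pdk1 lay at 3.09 and 0.79 in p53 on, the higher value in the array with muscle genes.

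**Figure D4:**
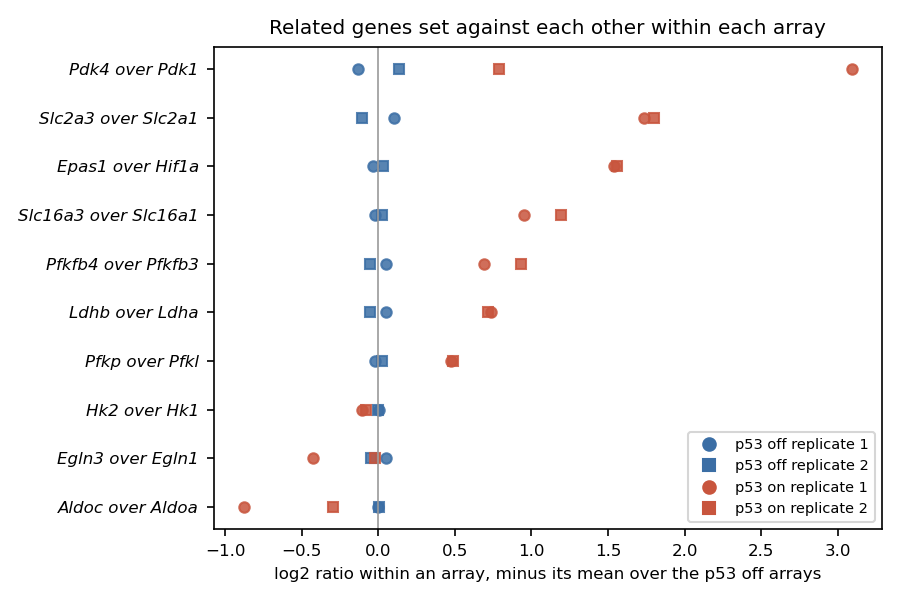
Log2 ratio of related genes within each array, minus its mean over the p53 off arrays (horizontal axis), for 10 pairs, with p53 off in blue, p53 on in red, circles for replicate 1 and squares for replicate 2. The p53 on arrays of Slc2a3 over Slc2a1, Epas1 over Hif1a, Ldhb over Ldha and Pfkp over Pfkl lie close together and right of 0, while those of Pdk4 over Pdk1 lie at 3.09 and 0.79.

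Most members had several probe sets, all read from the same RNA samples, so they are no independent test of a result. Of 73 member probe sets outside the array controls 28 were called lower, 14 higher and 31 not, together 57.5% called against 22.8% of all 45037 probe sets tested. Of 21 members with more than 1 probe set, 0 had probe sets called in opposite directions. Such a conflict needs at least 2 called probe sets, so part of this count was fixed in advance. In the fit of all probe sets, Gapdh (controls, not tested), Aldoa, Car12, Egln3, Pfkfb3 and Pfkl had none called. Slc16a1, Aldoc, Pfkp and Egln1 had 1. The share over all genes was not computed. Within Slc2a1, Tpi1, Pgk1, Hk1, Ldhb, Epas1 and Adm every probe set was called in the same direction. Slc16a1, Pdk1, Slc2a3, Aldoc, Pfkp, Hif1a, Ndrg1 and Egln1 each had at least 1 probe set that was not called beside those that were. Fewer member probe sets were called without p53 off replicate 2 or p53 off replicate 1.

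**Figure D5:**
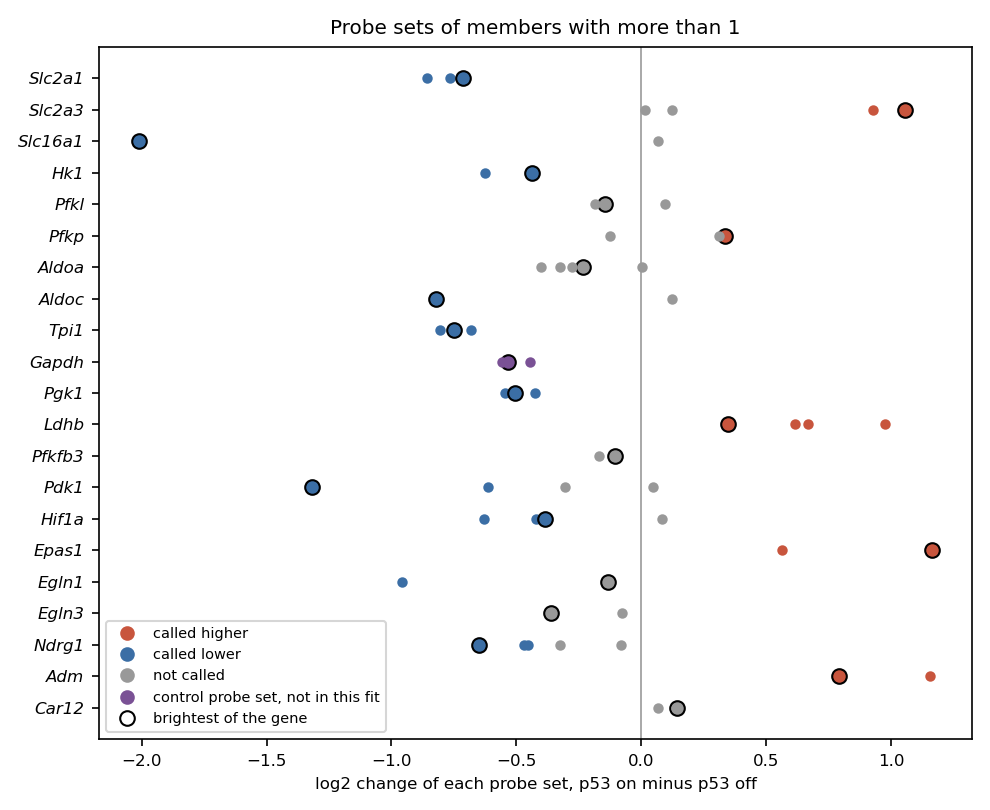
Log2 change of every probe set (p53 on minus p53 off, horizontal axis) for the 21 members with more than 1, in red where called higher, blue where called lower, grey where not called and purple for array controls outside that fit; a black ring marks the brightest probe set of the gene. Called probe sets of a gene lie on 1 side of 0, the grey points of Slc16a1 and Slc2a3 lie at 0.068, 0.014 and 0.12, and those of Pdk1 at 0.046 and -0.30.

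Promoters of the members were examined for the core of the HIF binding motif, since many of these genes are known HIF targets. RefSeq promoter sequences (GRCm38.p6, 250 bases before to 50 after a start) were found for 33 of the 37 named genes, 47 promoters in all. The core was searched as ACGTG and as GCGTG, on both strands. The palindrome CACGTG, the E-box bound by MYC and its relatives, contains the first of these and counts once on each strand. Of the 47 promoters 37 (78.7%) held a core, against 43.8% of 32851 promoters of the same length. The members' promoters were also richer in G and C (median 61.0% against 52.7%) and in CG dinucleotides (20 against 7), letters that the core itself contains.

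By direction of change, the core was present for 14 of 15 lower members with a sequence, 5 of 6 higher members and 9 of 10 that were not called, against 46.7% of all genes. The E-box was present for 4 of the 15 lower, 0 of the 6 higher and 3 of the 10 uncalled members, against 8.09% of all genes. A match is a description of letters, not a bound site. The stretches below, each 120 bases of the region before the start, show the member with the largest fall (Slc16a1), 3 enzymes that fell (Pgam1, Pgk1 and Ldha), the member with the largest rise (Eno2) and a target outside glycolysis that rose (Ankrd37). They run 5′ to 3′ on the gene's strand, with cores of either strand in capitals, where CACGT and CACGC are the reverse complements.
Slc16a1, chr3:104638464-104638583, plus strand: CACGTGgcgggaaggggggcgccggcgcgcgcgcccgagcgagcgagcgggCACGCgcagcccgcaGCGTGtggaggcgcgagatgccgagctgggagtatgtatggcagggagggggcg
Pgam1, chr19:41911691-41911810, plus strand: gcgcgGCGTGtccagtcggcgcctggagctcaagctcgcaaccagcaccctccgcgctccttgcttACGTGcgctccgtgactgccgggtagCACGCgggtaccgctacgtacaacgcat
Pgk1, chrX:106186950-106187069, plus strand: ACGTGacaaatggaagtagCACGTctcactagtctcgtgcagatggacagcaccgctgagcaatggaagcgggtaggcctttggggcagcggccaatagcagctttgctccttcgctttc
Ldha, chr7:46845654-46845773, plus strand: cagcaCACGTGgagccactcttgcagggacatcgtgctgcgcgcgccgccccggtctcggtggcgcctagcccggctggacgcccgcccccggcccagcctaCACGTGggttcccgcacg
Eno2, chr6:124769674-124769793, minus strand: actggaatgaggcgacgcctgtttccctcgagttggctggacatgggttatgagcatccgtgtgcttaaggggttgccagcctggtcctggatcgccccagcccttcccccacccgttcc
Ankrd37, chr8:45999981-46000100, minus strand: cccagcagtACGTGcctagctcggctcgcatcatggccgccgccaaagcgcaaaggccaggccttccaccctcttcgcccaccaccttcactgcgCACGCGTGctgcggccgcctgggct

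Slc16a1 and Ldha, which fell, carry CACGTG in these stretches, and the other 4 do not. Ankrd37, which rose, holds 4 cores in the 300 bases searched, 3 of them shown. Eno2 holds 0 cores in the 300 bases searched, although its change was the largest rise.

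Genes that act beside the members were counted in lists of their own, to be read against the 28.7% called among all genes. The share called was 39.1% for other HIF pathway genes, 6.25% for other glycolysis genes, 20% for pyruvate entry, 28.6% for gluconeogenesis and glycogen and 37.5% for the pentose phosphate pathway. Of 23 other HIF pathway genes 6 were lower and 3 higher (median -0.0060). Tfrc, the transferrin receptor gene, fell by 1.79 ± 0.073 (0.42 when its probe sets were averaged). Vegfa, which drives vessel growth, fell by 1.07 ± 0.17, and Selenbp1, a selenium-binding protein gene, rose by 1.05 ± 0.074 (for Tfrc, Vegfa and Selenbp1 in turn, limma adjusted p = 0.000339, 0.00759 and 0.000887). The HIF partner gene Arnt and the asparaginyl hydroxylase gene Hif1an, both in that list but named after their values were seen, were not called (0.25 ± 0.085 and -0.029 ± 0.071; limma adjusted p = 0.0875 and 0.811). Of 16 other glycolysis genes 1 was lower, Gpd2, the mitochondrial glycerol-3-phosphate dehydrogenase that passes glycolytic electrons to the respiratory chain (-1.83 ± 0.096, limma adjusted p = 0.000495, and -1.22 when its probe sets were averaged). The call of Vegfa was lost without p53 off replicate 2 (0.0568; range over the alternatives 0.00108 to 0.0568).

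Of 10 genes for pyruvate entry into mitochondria 1 was higher and 1 lower (median -0.083). Mpc1, a subunit gene of the mitochondrial pyruvate carrier, rose by 0.73 ± 0.11 (limma adjusted p = 0.00713), and Pdhx, a pyruvate dehydrogenase component gene, fell by 0.32 ± 0.079 (limma adjusted p = 0.0341). Of 14 gluconeogenesis and glycogen genes 2 were higher and 2 lower. Fbp1, which reverses the phosphofructokinase step, read 6.35 and 6.41 in p53 off against 7.52 and 7.71 in p53 on (1.24 ± 0.094, limma adjusted p = 0.00103). The mitochondrial PEP carboxykinase gene Pck2 rose by 0.57 ± 0.13, and the phosphoglucomutase gene Pgm2 changed by -0.86 ± 0.12 (limma adjusted p = 0.0226 and 0.00623). Of 8 pentose phosphate genes 3 were lower and 0 higher by limma: Tkt, transketolase (-0.71 ± 0.098, limma adjusted p = 0.00528), Rpe (-0.39 ± 0.10, 0.0411) and Pgd (-0.38 ± 0.092, 0.0311). Tigar, a p53 target of that list that lowers fructose-2,6-bisphosphate, was named after its value was seen and differed by -0.0013 ± 0.078 (limma adjusted p = 0.994).

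In that group of lists the limma calls of Pck2, Pgm2, Pdhx, Rpe and Pgd were lost without p53 off replicate 2 (0.121, 0.0505, 0.206, 0.22 and 0.144). Leaving out p53 off replicate 1 also ended the calls of Pck2, Pdhx, Rpe and Pgd (0.0923, 0.078, 0.0656 and 0.132). Without p53 on replicate 1 the calls of Pdhx (0.0728) and Pgd (0.0789) were lost, and without p53 on replicate 2 those of Pdhx (0.0716) and Rpe (0.105). Spike-in scaling ended the calls of Pdhx (0.134), Rpe (0.0852) and Pgd (0.11), as did a block for the replicate number (0.0661, 0.0873 and 0.0564). Quantile normalization ended those of Rpe (0.0551) and Pgd (0.0725), and averaging its probe sets that of Rpe (-0.16, 0.155). The range over the alternatives was 0.00291 to 0.121 for Pck2, 0.00146 to 0.0505 for Pgm2, 0.019 to 0.206 for Pdhx, 0.0213 to 0.22 for Rpe and 0.0124 to 0.144 for Pgd. Those of Mpc1, Fbp1, Tkt, Gpd2, Tfrc and Selenbp1 stayed under 0.05 in each alternative that measured them.

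Markers of cell types and of proliferation also differed between the groups. All 11 measured cell cycle genes were lower (median -0.79, mean log2 value 10.58 and 10.74 in p53 off against 9.68 and 9.80 in p53 on). Of 12 liver tumor epithelium markers 6 were lower and 1 higher (median -0.69), with Krt8 and Krt18 at -1.36 ± 0.10 and -1.61 ± 0.10. Epcam was the higher one (0.52 ± 0.072, limma adjusted p = 0.00531). The other 5 were not called, Alb, Ttr and Apoa1 among them. Of 12 macrophage markers 8 were higher and 0 lower by limma (median 0.83), and their mean was 10.07 and 10.17 in p53 off against 10.80 and 10.63 in p53 on. Of 12 endothelial markers 8 were higher and 1 lower (median 0.68), with means of 8.59 and 8.51 against 8.98 and 9.29. Of 12 fibroblast markers 10 were higher (median 0.58), with means of 11.87 and 11.61 against 12.68 and 12.61.

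Erythroid markers (0 of 5 called by limma, median 0.086) and neutrophil markers (1 of 7 higher, median 0.11) had means of 6.65 to 6.76 and 7.21 to 7.67 over all arrays. The array method gives no detection call, so none of these markers can be said to be at 0. With 2 groups, any lower gene shares its direction with the cell cycle and epithelial lists. Any higher gene likewise shares it with the macrophage, endothelial and fibroblast lists, so a shared direction links no member to a cell type. The part of cell makeup in the change of any member was not tested. As a measure of RNA quality, 3' minus 5' Gapdh controls differed by -0.11 and -0.14 in p53 off against -0.056 and -0.021 in p53 on. The actin controls differed by 0.39 and 0.26 in p53 off against 0.48 and 0.49 in p53 on. The part of RNA quality was not tested either.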

How the data were processed

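Total RNA of 4 mouse liver tumor samples was amplified by in vitro transcription and hybridized to 1 array each, per the labels' protocols. The deposited values are log2 values, 1 per probe set, made by the authors with RMA. RMA and limma 3.14.4 are named in the submitters' processing notes. The annotation used by the authors is not given in the sources used here. Groups and replicate numbers came from the sample titles.

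Of 45101 probe sets, 34958 had 1 gene symbol in the platform annotation, 932 several and 9211 none. The brightest probe set stood for each gene, and no dim gene was left out. The 18194 genes were fitted with lmFit and eBayes (limma 3.58.1, R 4.3.3), as p53 on minus p53 off and with no block, with Benjamini-Hochberg adjustment over all genes. All 45037 probe sets other than the 64 controls were fitted the same way. The fit was tested on simulated data. Figures used Python 3.11.15 and matplotlib 3.10.9.

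All members are described. Of each other pathway list, up to 3 called genes with the largest change were named. The members and lists were chosen with earlier results of these data known, and the skeletal muscle list after seeing the values. Deviations of the same-numbered arrays correlated at -0.154, but 2 arrays a group cannot show whether the numbers pair the samples. The alternatives were a replicate block (also crossed), other scalings, a filter on dim genes, other choices of probe set, other eBayes settings, array weights and leaving out each array.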

Additional observations from a re-analysis of the deposited data

How the results depend on the processing

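Over the 14 alternatives run, 9 of the 24 called members were called in the same direction in each alternative that measured them: Slc2a1, Slc16a1, Slc16a3, Tpi1, Pgam1, Eno2, Pkm, Pdk1 and Epas1. The count of called members (24) ran from 10 to 26 with 1 array left out, that of lower enzymes (9) from 3 to 9, that of called HIF regulators and non-glycolytic targets (6) from 1 to 6 and that of called member probe sets (42) from 15 to 42. Such fits take the spread of the remaining pair for the lone array too. The median change of the enzymes (-0.44) ran from -0.48 to -0.40 over these, and that of the HIF regulators and non-glycolytic targets (0.0040) from -0.028 to 0.036. With the brightest probe set without a suffix, 4 of 8 measured enzymes were lower (median -0.22), fewer genes having such a probe set. That setting called 27.3% of all genes. The enzyme median was -0.33 with quantile normalization, -0.51 with median centring, -0.31 with spike-in scaling and -0.38 when all probe sets were averaged. The median of the HIF regulators and non-glycolytic targets was -0.071 with median centring, 0.13 with spike-in scaling, -0.25 with dim genes left out and -0.051 when all probe sets were averaged. The cause was not tested. Changes of sign were found for Pfkl (0.096) and Aldoc (0.12) with the brightest probe set without a suffix, for Pfkfb3 with spike-in scaling (0.024) and for Pfkm (-0.14) and Pdk4 (-0.38) without p53 on replicate 1. Pfkm (0.45) and Pdk4 (1.63) were called when p53 on replicate 2 was left out.

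With a replicate block 21 members were called (15 lower and 6 higher), beside 23.8% of all genes. Under this block 9 enzymes were lower, and 4 HIF regulators and non-glycolytic targets and 34 member probe sets were called. The members that lost their call under it were Pfkp, Hif1a and Adm. The labels give the arrays no more than a shared number, and the correlation of their deviations (-0.154) cannot show whether they are paired. Crossing the numbers, chosen after seeing the data, gave 21 members called, beside 21.7% of all genes. It gave 8 lower enzymes, and called 5 HIF regulators and non-glycolytic targets and 34 member probe sets. With 2 arrays a group, small changes of dim probe sets could not be resolved.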
